A study of Mus musculus with 12 samples.

Results

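The classical cadherins and catenins of adherens junctions were followed in mouse skin and in keratinocytes grown from it. The genes were Cdh1, Cdh3, Cdh2, Cdh11 and Cdh13 among the cadherins and Ctnnb1, Ctnnd1 and Ctnna1 among the catenins, and every probe set whose platform gene symbol was one of these names was kept. A probe set is a group of short probes that read 1 transcript. This gave 15 probe sets for 8 genes, out of 22690 probe sets on the array, of which 22626 were not controls, and out of 12393 genes with a single symbol. Expression was measured on 12 Affymetrix arrays, 1 per RNA sample, of mice with no engineered allele named in the labels. There were 5 cultures of keratinocytes from newborn mice, 5 skin samples taken at 30 days of age and 2 taken from newborns. Cultures 1 and 2 and all 30-day skin were of a C57, DBA and FVB mixed strain, whereas cultures 3, 4 and 5 and both newborn skin samples came from FVB. Each culture pooled cells of 5 mice of 1 genotype, was held in low Ca2+ medium for up to 3 days and was not passaged. Age and strain coincide within skin, so they cannot be told apart there. No label says whether each skin sample is a different animal. The p-values therefore describe variation among the samples at hand, part of which may be technical.

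Classical cadherins are transmembrane proteins that bind the same cadherin on a neighbouring cell when calcium is present. Their tails bind beta-catenin and p120-catenin, beta-catenin binds alpha-catenin, and alpha-catenin links the complex to actin. Beta-catenin also acts in the nucleus with TCF and LEF factors in Wnt signalling. In epidermis E-cadherin lies throughout the living layers and P-cadherin mainly in the basal layer and the hair bud and matrix, while N-cadherin and cadherin-11 are better known from mesenchymal and neural cells. Cdh13 encodes T-cadherin, which has a lipid anchor and no catenin-binding tail, so it is a relative rather than a classical cadherin in the strict sense.

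The values were RMA values on a log2 scale, where a difference of 1 is a doubling, and levels are compared only within a probe set. Markers of keratinocytes, the cells that build the epidermis, had a mean level of 10.92 to 11.07 in the cultures, against 9.84 to 10.49 in 30-day skin and 10.18 to 10.29 in newborn skin, with 4 of 6 genes higher in culture and 0 lower. All 7 fibroblast markers were lower in culture, where their mean was 5.52 to 6.12, against 10.53 to 11.03 in 30-day skin and 11.16 to 11.22 in newborn skin. Melanocyte markers had a mean of 7.32 to 8.97 in the cultures, against 8.90 to 9.33 in 30-day skin and 8.37 to 8.39 in newborn skin. Replicate 1 of 30-day skin stood apart: its 3' actin control read 1.74 above the 5' control, against 0.67 to 0.82 in the other 4 samples of the group. This gap, which widens when RNA is degraded, was 0.21 to 0.74 in the 5 cultures, against 0.99 and 1.14 in newborn skin. Calls that were gained or lost without that sample are given both ways.

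**Figure D1:**
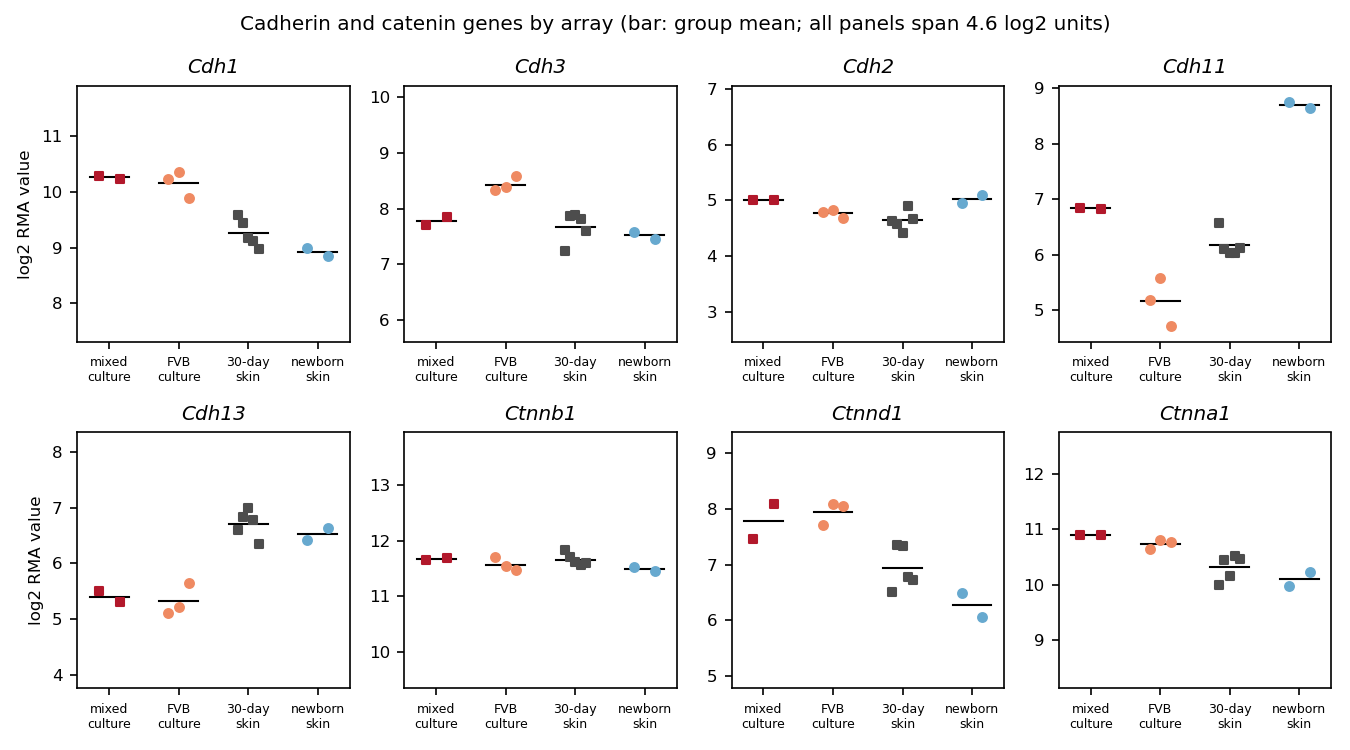
Log2 RMA value (y axis) of each of the 8 genes, read by its brightest probe set, in mixed-strain cultures (n = 2), FVB cultures (n = 3), 30-day skin (n = 5) and newborn skin (n = 2); points are samples, bars are group means, and every panel spans the same number of log2 units. Cdh1 lies at 9.90 or above in every culture and at 9.59 or below in every skin sample, Cdh13 lies at 5.64 or below in every culture and at 6.35 or above in every skin sample, and Cdh11 stands at 8.64 and 8.75 in newborn skin, far above the other 3 groups.

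Promoter sequence was at hand for 2 of the 8 genes, Ctnnb1 and Ctnnd1, whose brightest probe sets behaved differently between culture and skin, as given below. RefSeq (GRCm38.p6) has 2 start windows for each, and the 250 bases before the more upstream start are shown, 5′ to 3′ on the strand of the gene. For Ctnnb1 this is chr9:120933150-120933399 on the plus strand, and for Ctnnd1 it is chr2:84658978-84659227 on the minus strand. Capitals mark matches to CCAAT, the CCAAT box, and to GGGCGG, the GC box, on either strand, so that a match on the other strand appears as the reverse complement.
Ctnnb1: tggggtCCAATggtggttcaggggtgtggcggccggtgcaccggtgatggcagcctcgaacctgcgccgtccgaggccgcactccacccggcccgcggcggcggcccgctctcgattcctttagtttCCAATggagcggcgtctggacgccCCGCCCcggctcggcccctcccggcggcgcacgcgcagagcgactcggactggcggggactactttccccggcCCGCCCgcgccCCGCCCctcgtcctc
Ctnnd1: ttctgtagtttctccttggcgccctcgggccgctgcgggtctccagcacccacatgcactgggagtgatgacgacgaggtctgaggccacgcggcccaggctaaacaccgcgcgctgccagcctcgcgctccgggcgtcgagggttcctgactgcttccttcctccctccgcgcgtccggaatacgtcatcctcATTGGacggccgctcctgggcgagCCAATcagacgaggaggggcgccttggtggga
The printed Ctnnb1 window held 2 CCAAT and 3 GGGCGG matches, and the printed Ctnnd1 window held 2 CCAAT and 0 GGGCGG matches. Neither held CACCTG, the form of E-box bound by Snail and ZEB factors, or TATAAA, the TATA box, in these letters on either strand. The windows before the other start did hold TATAAA, 1 match each. That of Ctnnb1, chr9:120933328-120933577, also held 2 GGGCGG and 0 CCAAT matches, and that of Ctnnd1, chr2:84650741-84650990, also held 2 CCAAT and 0 GGGCGG matches, with no CACCTG in either. The 2 Ctnnb1 windows overlap, and the 2 GGGCGG matches are among the 3 already counted in the printed window. None of the matches in the printed windows overlapped another. Among 32817 mouse promoter windows of 250 bases, 33.8% held CCAAT, 32.7% held GGGCGG, 17.2% held CACCTG and 12.4% held TATAAA. The GC content was 74.8% and 66.8% in the printed windows of Ctnnb1 and Ctnnd1, at the 96.1 and 86.5 percentiles of all windows, and 74.4% and 40% in the windows before the other start, at the 95.8 and 12.5 percentiles. These are letters in a sequence and not measured binding.

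The comparison of cultures with skin asked how adherens junction transcripts differ between isolated epidermal cells and the whole tissue. E-cadherin, P-cadherin, p120-catenin and alpha-catenin transcripts were higher in culture as deposited, cadherin-11 and T-cadherin transcripts were lower, and the brightest beta-catenin probe set did not pass the test. The directions for P-cadherin and alpha-catenin turned when arrays were centred on epithelial genes (below). Cadherin-11 was not called against 30-day skin alone as deposited. Differences were tested with limma over all 22626 probe sets with Benjamini-Hochberg adjustment, a probe set was called at an adjusted p under 0.05, and errors are standard errors (SE) unless called SD. Cultures were set against the equally weighted mean of 30-day and newborn skin. Of the 15 probe sets 8 were called, 6 higher and 2 lower, while 42.5% of all probe sets on the array were called, 24.3% higher and 18.3% lower. The count of 8 lies near that background, so it is no result about these genes as a group. Against 30-day skin alone 8 were called, 6 higher and 2 lower, with a background of 43.3% (25.1% higher and 18.2% lower), and against newborn skin alone 7 were called, 5 higher and 2 lower, with a background of 32.3% (17.6% higher and 14.7% lower). The median difference from skin was 0.06 over the 15 probe sets and 0.03 over the array. In bulk samples, fewer cells of a type and less RNA per cell cannot be told apart.

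Cdh1, which encodes E-cadherin, the main cadherin of epidermal keratinocytes, read 10.29, 10.23, 10.23, 10.36 and 9.90 in the 5 cultures, against 9.59, 9.44, 9.18, 9.11 and 8.97 in 30-day skin and 8.99 and 8.85 in newborn skin. Every culture lay above every skin sample, as was the case for 14.6% of all probe sets. Cultures averaged 10.20 ± 0.18 (SD, n = 5) and the difference from skin was 1.11 ± 0.12 (adjusted p = 4.06e-06, limma), a 2.16-fold higher level with a 95% interval of 0.86 to 1.37 on the log2 scale. It was 0.95 ± 0.12 against 30-day skin (adjusted p = 2.64e-05) and 1.28 ± 0.16 against newborn skin (adjusted p = 3.41e-05). Keratinocyte markers moved with it, as given above, and their part in the result was not tested. When each array was centred on the mean of 14 epithelial genes, none of them among the 8 genes, the difference was 0.40 ± 0.15 (adjusted p = 0.0194) against skin, 0.29 (adjusted p = 0.0951) against 30-day skin and 0.51 (adjusted p = 0.0277) against newborn skin.

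Cdh3 encodes P-cadherin, and its gene lies next to Cdh1 on chromosome 8 with no coding gene between them in the RefSeq table. It read 7.71, 7.85, 8.33, 8.39 and 8.58 in the cultures, against 7.23, 7.86, 7.89, 7.82 and 7.59 in 30-day skin and 7.58 and 7.46 in newborn skin. The 3 FVB cultures lay above every skin sample, while the 2 mixed-strain cultures lay within the range of 30-day skin and above both newborn samples. The difference was 0.57 ± 0.17 against skin (adjusted p = 0.0127), 0.49 ± 0.17 against 30-day skin (adjusted p = 0.0321) and 0.65 ± 0.23 against newborn skin (adjusted p = 0.0427), and all 3 values turned negative, at -0.14, -0.17 and -0.12, when arrays were centred on the 14 epithelial genes. Without replicate 1 of 30-day skin, the lowest sample of its group, the difference from 30-day skin was 0.38 (adjusted p = 0.0748). Cdh1 and Cdh3 therefore had the same sign as deposited, yet only Cdh1 separated all cultures from all skin samples.

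The catenins that bind the cadherin tail and actin gave 3 different pictures. Ctnnd1 encodes p120-catenin, which holds cadherins at the cell surface, and has 1 probe set here. It read 7.46, 8.09, 7.71, 8.09 and 8.05 in the cultures, against 6.51, 7.36, 7.34, 6.77 and 6.73 in 30-day skin and 6.49 and 6.06 in newborn skin. Again every culture lay above every skin sample. The level was 2.41-fold higher, at 1.27 ± 0.18 (adjusted p = 5.20e-05) against skin, 0.94 ± 0.18 (adjusted p = 8.91e-04) against 30-day skin and 1.61 ± 0.24 (adjusted p = 1.68e-04) against newborn skin. Centred on the epithelial genes, these were 0.56 (adjusted p = 0.00311), 0.28 (adjusted p = 0.119) and 0.84 (adjusted p = 0.00185).

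Ctnna1 encodes alpha-catenin, the link from beta-catenin to actin. Its brightest probe set, 1448149_at, read 10.90, 10.90, 10.64, 10.81 and 10.77 in the cultures, against 10.00, 10.45, 10.16, 10.52 and 10.46 in 30-day skin and 9.98 and 10.23 in newborn skin. All cultures lay above all skin samples, by a narrow margin. The difference was 0.59 ± 0.11 (adjusted p = 4.17e-04), and a second probe set, 1437807_x_at, gave 0.66 ± 0.11 (adjusted p = 2.18e-04), but the values were -0.12 and -0.05 when centred on the epithelial genes. The third, 1437275_at, read 3.81 to 4.13 in all 12 samples, below the median of every array, and was not called in any comparison.

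Ctnnb1 encodes beta-catenin, and its 3 probe sets disagreed. The brightest, 1420811_a_at, read 11.65, 11.68, 11.70, 11.54 and 11.47 in the cultures, against 11.83, 11.70, 11.61, 11.56 and 11.59 in 30-day skin and 11.52 and 11.46 in newborn skin. The groups overlapped, and the difference from skin was 0.04 ± 0.08 (adjusted p = 0.747) with a 95% interval of -0.13 to 0.20. It was -0.68 ± 0.12 (adjusted p = 6.84e-05) when centred on the epithelial genes. The probe set 1450008_a_at differed by 0.32 ± 0.20 (adjusted p = 0.217), and by -0.39 (adjusted p = 0.0488) under that centring. The third, 1430533_a_at, read 9.87, 9.89, 9.56, 9.14 and 9.33 in the cultures, against 7.86, 9.14, 9.14, 8.90 and 8.97 in 30-day skin and 8.92 and 9.28 in newborn skin. Its difference was 0.61 ± 0.22 (adjusted p = 0.0412) against skin and 0.76 ± 0.23 (adjusted p = 0.0162) against 30-day skin, and these became -0.10 and 0.10 (adjusted p = 0.627 and 0.670) under the epithelial centring. The call against skin was lost in 11 of 24 alternatives besides that reversal, among them repeated quantile normalisation (0.48, adjusted p = 0.107) and the omission of either newborn sample (0.52 and 0.70, adjusted p = 0.158 and 0.0567). Replicate 1 of 30-day skin was the lowest of all samples on both of these probe sets and the highest of all on 1420811_a_at. Without it 1430533_a_at differed from 30-day skin by 0.52 ± 0.15 (adjusted p = 0.0142).

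**Figure D2:**
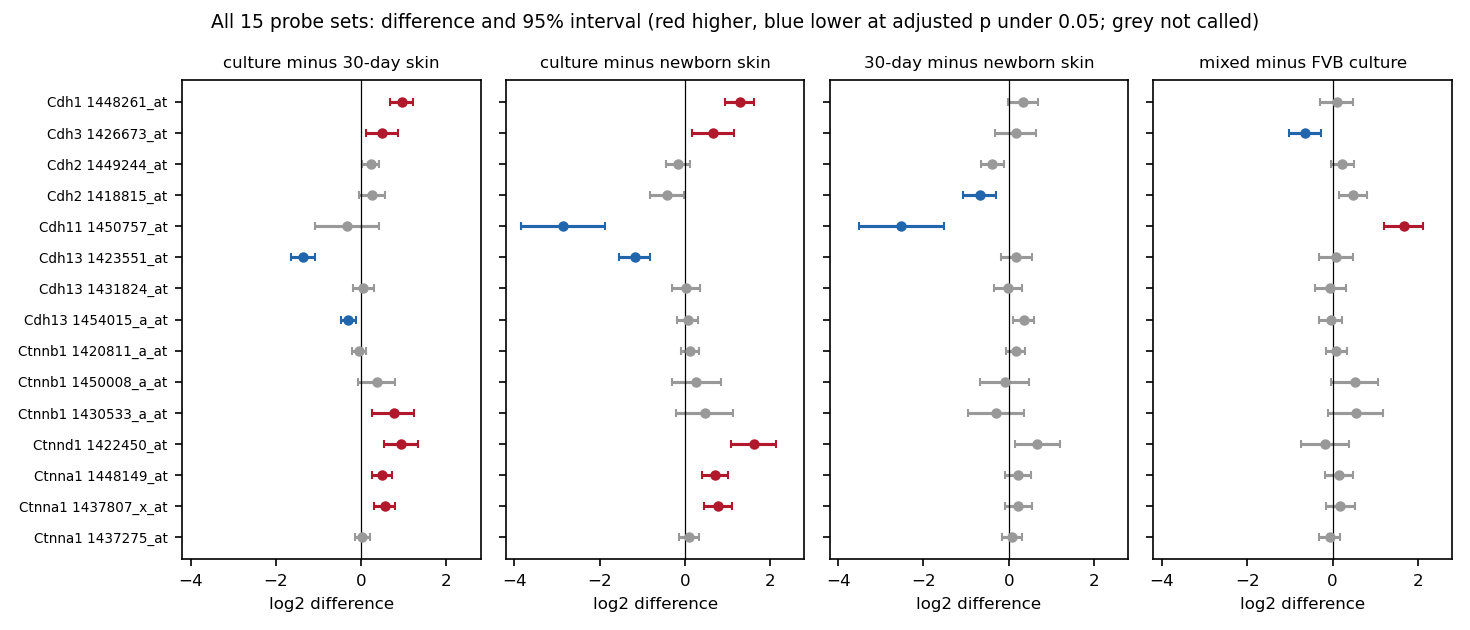
Log2 difference (x axis) with its 95% interval for all 15 probe sets (y axis) in 4 comparisons, from the values as deposited; red marks higher, blue lower and grey not called at the adjusted p threshold. Cdh1, Cdh3, Ctnnd1 and 2 Ctnna1 probe sets are higher in culture than in either kind of skin. Under the epithelial centring Cdh3 turns to -0.14 and Ctnna1 to -0.12 and -0.05 against skin. Cdh11 is lower than in newborn skin both in culture (-2.86) and in 30-day skin (-2.52).

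T-cadherin, known from endothelium, smooth muscle and basal keratinocytes, had lower transcript levels in culture. The Cdh13 probe set 1423551_at read 5.50, 5.30, 5.11, 5.22 and 5.64 in the cultures, against 6.61, 6.83, 7.0, 6.78 and 6.35 in 30-day skin and 6.43 and 6.63 in newborn skin. Every culture lay below every skin sample, as for 11.1% of all probe sets, and below the median of every array. The difference was -1.27 ± 0.13 (adjusted p = 1.96e-06) against skin, -1.36 against 30-day skin and -1.18 against newborn skin. Over the same arrays 8 of 8 endothelial markers and 7 of 8 smooth muscle and pericyte markers were lower in culture. The endothelial mean was 4.93 to 5.17 in culture, against 5.94 to 6.02 in 30-day skin and 6.62 to 6.68 in newborn skin, and the smooth muscle and pericyte mean was 6.15 to 6.59 in culture, against 7.66 to 8.02 in 30-day skin and 7.77 to 7.85 in newborn skin. Markers of other cells were lower in culture too, 6 of 6 for adipocytes, 7 of 8 for skeletal muscle and 6 of 7 for macrophages and Langerhans cells. For keratinocytes 0 of 6 were lower. The part of these cells in the Cdh13 difference was not tested. The other Cdh13 probe sets, 1431824_at and 1454015_a_at, read 3.81 to 4.51 throughout, below every array median, and 1454015_a_at was called lower in culture than in 30-day skin by -0.30 ± 0.09 (adjusted p = 0.0126).

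N-cadherin was dim in all samples. The Cdh2 probe set 1449244_at read 5.0, 5.0, 4.79, 4.83 and 4.68 in the cultures, against 4.63, 4.58, 4.42, 4.89 and 4.67 in 30-day skin and 4.96 and 5.09 in newborn skin. The other, 1418815_at, read 4.28, 4.6, 3.91, 4.24 and 3.72 in the cultures, against 3.98, 3.92, 3.81, 3.81 and 3.93 in 30-day skin and 4.69 and 4.46 in newborn skin. All of these values lay below the median of their array, where RMA has no detection call, so an expressed level cannot be stated. Against skin the differences were 0.03 ± 0.09 (adjusted p = 0.828, 95% interval -0.17 to 0.23) and -0.08 ± 0.13 (adjusted p = 0.671, 95% interval -0.37 to 0.21). Under the epithelial centring they were -0.68 (adjusted p = 1.42e-04) and -0.80 (adjusted p = 3.23e-04), both called lower, as were 18303 of all 22626 probe sets.

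Cadherin-11, a cadherin of fibroblasts, bone-forming cells and other mesenchyme, had the widest range of the 15 probe sets over the 12 samples, 4.03 log2 units. Cdh11 read 6.84, 6.83, 5.19, 5.59 and 4.72 in the cultures, against 6.57, 6.10, 6.04, 6.04 and 6.12 in 30-day skin and 8.75 and 8.64 in newborn skin. Newborn skin stood above all other samples, the 2 mixed-strain cultures lay above 30-day skin, and the 3 FVB cultures lay below it. The difference of all cultures was -1.60 ± 0.34 (adjusted p = 0.00148) against skin and -2.86 ± 0.46 (adjusted p = 2.71e-04, 7.26-fold lower) against newborn skin. Against 30-day skin it was -0.34 ± 0.35 (adjusted p = 0.472), a value that pooled cultures on both sides of the skin samples, and under the epithelial centring it was -1.0 (adjusted p = 0.0177).

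For Cdh11, pairs of the same strain background gave opposite signs on the deposited scale. The 2 mixed-strain cultures differed from the 30-day skin of the same background by 0.66 (adjusted p = 0.0152), whereas the 3 FVB cultures differed from FVB newborn skin by -3.53. The difference between these differences, a test chosen after the data were seen, was 4.19 ± 0.29 (adjusted p = 1.20e-06), and 8.48% of all probe sets passed that test. It was also passed by Cdh2, at 0.62 ± 0.17 for 1449244_at (adjusted p = 0.0407) and 1.17 ± 0.20 for 1418815_at (adjusted p = 0.00281), and by Cdh3, at -0.81 ± 0.23 (adjusted p = 0.0499). For Cdh3 the mixed-strain cultures differed from 30-day skin by 0.10 and the FVB cultures from newborn skin by 0.91. For Cdh1 the matched differences were 1.0 and 1.24, and for Ctnna1 1448149_at they were 0.58 and 0.63. Under the epithelial centring, also added after the data were seen, the positive arms shrank or turned while the differences between differences of Cdh11 and Cdh2 were still called. The mixed-strain cultures then differed from 30-day skin by 0.09 for Cdh11 (adjusted p = 0.720), by -0.21 for Cdh2 1449244_at and by -0.02 for Cdh2 1418815_at. The FVB cultures differed from newborn skin by -4.35 for Cdh11. The difference between these differences was 4.44 ± 0.34 for Cdh11 (adjusted p = 3.95e-07), 0.88 and 1.43 for the Cdh2 probe sets (adjusted p = 0.0194 and 0.00169) and -0.55 for Cdh3 (adjusted p = 0.0901), and that of Ctnnb1 1430533_a_at, 1.09, was called (adjusted p = 0.0384), against 0.84 (adjusted p = 0.267) as deposited. The age of the skin and the strain change together in this test and cannot be told apart. By its arithmetic the test equals mixed minus FVB culture less 30-day minus newborn skin. Both comparisons are given below, so the test is no separate observation.

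Between 30-day and newborn skin, cadherin-11 transcript was lower at 30 days, as was the dimmer of the 2 Cdh2 probe sets, and no probe set of the other 6 genes was called. Of the 15 probe sets 2 were called, 0 higher and 2 lower, against 12.1% of all probe sets, 4.75% higher and 7.36% lower, so the count is near the background. Cdh11 was 5.74-fold lower, at -2.52 ± 0.46 (adjusted p = 0.00291), and the 2 groups did not overlap, as was the case for 17.6% of all probe sets in that direction. Without replicate 1 of 30-day skin it differed by -2.62 (adjusted p = 0.00251). Cdh2 differed by -0.68 ± 0.18 for 1418815_at (adjusted p = 0.0276) and by -0.39 ± 0.13 for 1449244_at (adjusted p = 0.0704), both from values below the median of every array. The call of 1418815_at was lost in 8 of 23 alternatives. Ctnnd1 differed by 0.67 ± 0.24 (adjusted p = 0.0983), and by 0.78 (adjusted p = 0.0385) without replicate 1 of 30-day skin. Cdh13 1454015_a_at differed by 0.35 ± 0.11 (adjusted p = 0.0636), and by 0.41 (adjusted p = 0.0157) without that sample. Cdh1 differed by 0.34 ± 0.16 (adjusted p = 0.221) and Cdh3 by 0.16 ± 0.23 (adjusted p = 0.750).

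Of the 7 fibroblast markers 3 were lower at 30 days and 0 higher, and of the 8 endothelial markers 6 were lower. Hair matrix markers moved the other way, with 7 of 8 higher at 30 days and a mean of 8.83 to 9.33, against 8.37 and 8.38 in newborn skin. The fibroblast mean was 10.53 to 11.03, against 11.16 and 11.22 in newborn skin, but the median difference of the 7 markers was -0.05. Of the 4 not called, Col1a2 read 13.19 to 13.53 at 30 days, against 12.64 to 12.79 in newborn skin. Dcn, also not called, read 11.64 to 11.84 at 30 days, against 11.41 to 11.63 in newborn skin. The part of these cells in the Cdh11 difference was not tested.

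**Figure D3:**
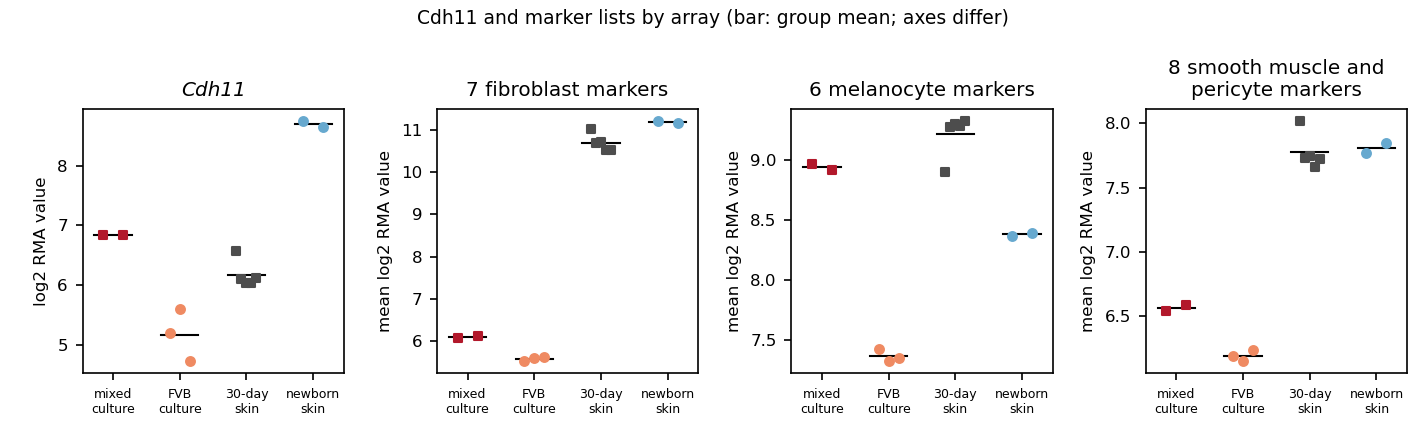
Log2 RMA value of Cdh11 and mean log2 RMA value of 7 fibroblast, 6 melanocyte and 8 smooth muscle and pericyte markers (y axes, which differ) in mixed-strain cultures (n = 2), FVB cultures (n = 3), 30-day skin (n = 5) and newborn skin (n = 2); points are samples and bars group means. Cdh11 is at 6.83 and 6.84 in mixed-strain cultures, against 8.64 and 8.75 in newborn skin, and the fibroblast mean is at 6.07 and 6.12 in those cultures, against 11.16 and 11.22 in newborn skin.

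Within culture, mixed-strain cells had more cadherin-11 and less P-cadherin transcript than FVB cells as deposited. The P-cadherin call was lost in 10 of 25 alternatives, among them repeated quantile normalisation and the omission of any single culture. Of the 15 probe sets 1 was higher and 1 lower, against 9.22% of all probe sets called, 3.91% higher and 5.30% lower, so that the count is again near the background. Cdh11 averaged 6.83 in the 2 mixed-strain and 5.17 in the 3 FVB cultures, a difference of 1.67 ± 0.21 (adjusted p = 3.84e-04), and Cdh3 averaged 7.78 in the mixed-strain and 8.43 in the FVB cultures, a difference of -0.65 ± 0.17 (adjusted p = 0.0321). In neither gene did the strains overlap, a separation that 46.0% of all probe sets showed with so few samples. Cdh2 1418815_at differed by 0.49 ± 0.15 (adjusted p = 0.0624). Without replicate 1 of 30-day skin, which enters this comparison only through the shared estimate of the spread, it was called at the same 0.49 (adjusted p = 0.0421), and so were Ctnnb1 1430533_a_at at 0.54 (adjusted p = 0.0203) and 1450008_a_at at 0.52 (adjusted p = 0.0184). Under the epithelial centring Cdh2 1418815_at was at 0.64 (adjusted p = 0.0455). Cdh1 differed by 0.10 ± 0.18 (adjusted p = 0.791, 95% interval -0.29 to 0.48). Both Cdh11 and Cdh3 kept their sign when centred on the epithelial genes, at 1.82 and -0.50.

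Markers of other cells differed between the same cultures. Of 6 melanocyte markers 5 were higher in mixed-strain culture, with a mean of 8.92 and 8.97, against 7.32 to 7.42 in FVB culture. Of 7 fibroblast markers 3 were higher, with a mean of 6.07 and 6.12 in mixed-strain culture, against 5.52 to 5.61 in FVB culture. Col1a2, which encodes a chain of fibrillar collagen, read 8.26 and 8.28 in mixed-strain culture, against 6.69 to 7.02 in FVB culture. By contrast, 4 of the 7 fibroblast markers were not called, and Col1a1 read 6.68 and 7.51, against 6.66 to 6.90 in FVB culture. Of 8 smooth muscle and pericyte markers 2 were higher, among them Tagln, at 8.87 and 8.89 in mixed-strain culture, against 7.09 to 7.34 in FVB culture. The other 6 were not called, and of these Myh11 read lower, at 4.50 in mixed-strain culture, against 4.83 to 4.85 in FVB culture. Suprabasal markers were lower for 2 of 5 genes, with a mean of 6.78 and 6.80 in mixed-strain culture, against 7.61 to 7.81 in FVB culture. Their part in the Cdh11 and Cdh3 differences was not tested.

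The profiles most like those of the 4 genes that differed by 1 or more between culture and skin were found by the smallest root mean square difference over the 12 samples, after each probe set's mean was subtracted. Closest to Cdh1 were Rap2c, a small GTPase (0.095), Pkp2, a desmosome plaque protein (0.146), and Ghitm, a mitochondrial membrane protein (0.150). Closest to Ctnnd1 were the tyrosine kinase Src (0.164), Rnd3 (0.199) and the Mediator subunit Med19 (0.206). Closest to Cdh13 were Smoc2, a matrix-associated protein (0.151), Mylk, the myosin light chain kinase (0.156), and Dgat2, an enzyme of triglyceride synthesis (0.159). This measure grows with the range of a probe set, which was widest for Cdh11 among the 15. The Cdh11 profile had no neighbour as near. Its closest were Lox, a collagen cross-linking enzyme (0.402), and both probe sets of Lgals1, which encodes galectin-1 (0.406 and 0.479). All values are on the log2 scale, and the samples share the group differences already described.

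The wider junction machinery was described through gene lists, with each gene read by its brightest probe set. Of 17 other catenin family members and actin linkers, 9 were higher in culture than in skin and 2 lower, with a median difference of 0.43 against 0.03 over the array. Of all probe sets 24.3% were called higher in this comparison and 18.3% lower. The alpha-actinin gene Actn1 differed by 2.02 ± 0.09, the LIM proteins Ajuba by 1.34 ± 0.13 and Lima1 by 1.25 ± 0.14, and vinculin (Vcl), which binds stretched alpha-catenin, by 1.09 ± 0.10. Ablim1, an actin-binding LIM protein, differed by -1.19 ± 0.17, and Ctnnd2, a neural relative of p120-catenin, by -0.80 ± 0.11. Jup, which encodes plakoglobin, the partner of both classical and desmosomal cadherins, differed by 0.31 ± 0.17 (adjusted p = 0.180). Between 30-day and newborn skin 2 of the 17 were higher, Actn4 (0.61) and Actn1 (0.59), and 2 lower, Vcl (-0.67) and Ctnnd2 (-0.59). Of all probe sets 4.75% were called higher between these ages and 7.36% lower.

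Transcription factors known to repress Cdh1 or the epithelial state moved in both directions. Of 10 measured, 6 were lower in culture than in skin and 2 higher, with a median of -1.01. Of all probe sets 18.3% were lower and 24.3% higher. Twist2 differed by -2.07, Twist1 by -1.99, Tcf4 by -1.89 and Zeb2 by -1.81, and these factors are also expressed in dermal fibroblasts. Twist2 stands in the fibroblast list too. Snai2, the Snail family member of basal keratinocytes, was higher by 1.09 ± 0.09 (adjusted p = 4.87e-07), in the same cultures in which Cdh1 was higher. Foxc2 was higher by 0.42, and Tcf3 differed by 0.13 (adjusted p = 0.547). Between 30-day and newborn skin 4 were lower and 0 higher, beside 7.36% and 4.75% of all probe sets. These were Twist2 at -2.42, Twist1 at -1.71, Tcf4 at -0.99 and Snai1 at -0.74. Between mixed-strain and FVB culture Tcf3 alone among the 10 was called, at -0.60, beside 9.22% of all probe sets.

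Among 10 epithelial factors known to favour Cdh1 or the epithelial state, 3 were higher in culture and 4 lower. Of all probe sets 24.3% were higher and 18.3% lower. Klf5 differed by 0.59, Grhl2 by 0.34 and Esrp2 by 0.33, whereas Ovol1 differed by -0.94, Grhl1 by -0.74, Klf4 by -0.72 and Esrp1 by -0.21. In mixed-strain relative to FVB culture Klf4 (-0.84), Grhl1 (-0.72) and Trp63 (-0.70) were lower and 0 of the 10 higher, beside 5.30% and 3.91% of all probe sets.

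Genes of cadherin turnover were higher in culture than in skin for 5 and lower for 3 of 10, beside 24.3% and 18.3% of all probe sets. Src, whose kinase phosphorylates junction proteins, differed by 1.03 ± 0.13, the receptor phosphatase Ptprk by 0.74, Adam10, the protease that sheds E-cadherin, by 0.56, and Cbll1, which encodes the ubiquitin ligase Hakai, by 0.42. Ptpn1 differed by -0.59, Pip5k1c by -0.39 and Numb by -0.32. Of the 4 nectins, which start junctions beside cadherins, Nectin1 was higher by 0.46 and Nectin3 lower, at -1.50. Among 9 other classical cadherins measured, 0 were higher and 3 lower, beside the same 24.3% and 18.3%. Cdh5, the cadherin of endothelium, whose gene follows Cdh11 on chromosome 8, differed by -1.69, Cdh6 by -0.70 and Cdh4 by -0.56.

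Of 12 nuclear partners and targets of beta-catenin 6 were lower in culture, 1 was higher and 5 were not called, with a median of -0.35, beside 42.5% of all probe sets called. Lgr5, a target and follicle stem cell marker, differed by -2.54 ± 0.10, Lef1, a partner abundant in hair matrix, by -1.45 ± 0.12, Tcf7l1 by -0.82 and Notum by -0.70. Myc, which has many inputs, was higher by 1.82 ± 0.15. Of 11 genes of the destruction complex and other inhibitors 3 were higher and 3 lower, beside 24.3% and 18.3% of all probe sets. Fbxw11 differed by 0.51, Apc by 0.39 and Csnk1a1 by 0.30, against -1.34 for Axin2, itself a target, -1.24 for Ctnnbip1 and -0.35 for Cby1. Over the same samples 7 of 8 hair matrix markers were lower in culture, with a mean of 5.10 to 5.23, against 8.83 to 9.33 in 30-day skin and 8.37 and 8.38 in newborn skin, and their part in these differences was not tested. Lef1 is one of those markers.

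**Figure D4:**
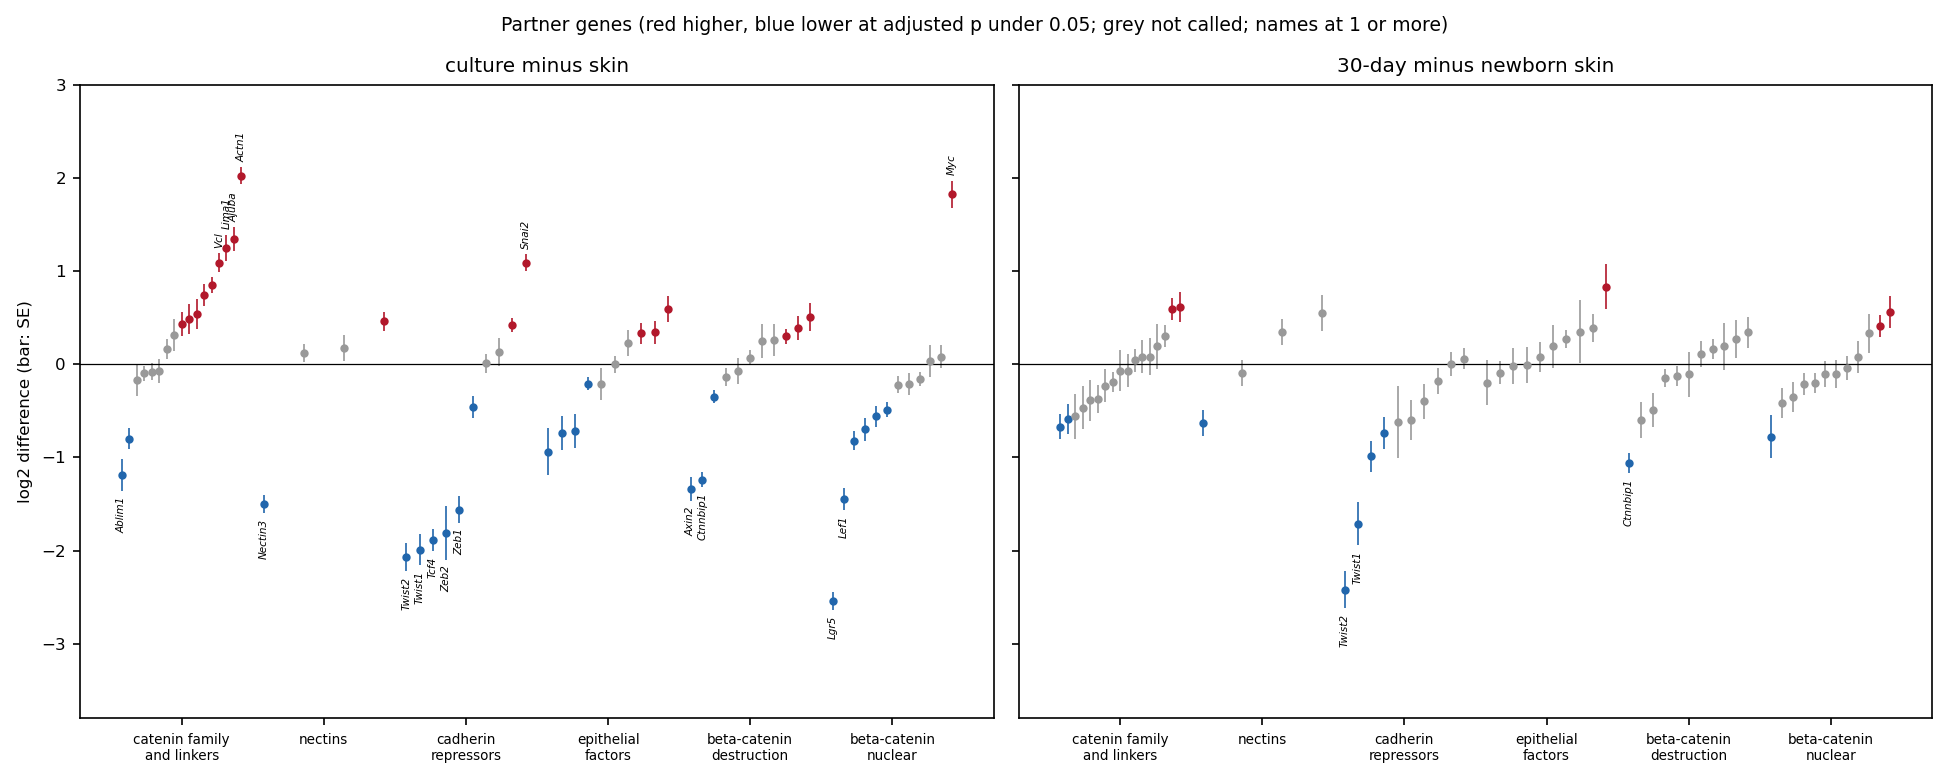
Log2 difference with SE (y axis) for genes of 6 lists (x axis), as deposited, in culture relative to skin (left) and in 30-day relative to newborn skin (right); points are genes, red higher, blue lower and grey not called, with names at a size of 1 or more. Actin linkers reach 2.02 (Actn1) in culture while Twist2, Twist1, Tcf4 and Zeb2 lie at -1.81 or lower, and Twist2 is also at -2.42 at 30 days relative to newborn skin.

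The scale on which culture and skin are compared decided several directions. RMA had given every array nearly the same distribution of values, within 0.19 of the mean of the sorted values. Centring each array on the 14 epithelial genes, of which 7 were higher and 2 lower in culture as deposited, moved the median probe set by -0.71 in culture relative to skin, by -0.77 relative to newborn skin and by -0.66 relative to 30-day skin. It moved the median by -0.11 between the skin ages and by 0.15 between the culture strains. On that scale 2 of the 15 probe sets were higher in culture than in skin, Cdh1 and Ctnnd1, and 9 were lower. Of all 22626 probe sets 909 were called higher and 18303 lower on that scale, so a call of lower was the common outcome there. Cdh13 1423551_at was then at -1.98 and Cdh11 at -2.31. Relative to the mean of both kinds of skin, Cdh1 and Ctnnd1 were thus called higher, and Cdh11 and Cdh13 1423551_at lower, on both scales. The calls of Cdh3, Ctnna1, Ctnnb1 and Cdh2 depended on the scale, as did those of the dim Cdh13 probe sets. Against 30-day skin alone, Cdh1 and Ctnnd1 lost their calls under the centring. Cdh11 was not called there as deposited (-0.34, adjusted p = 0.472, limma), and its mixed-strain cultures differed from that skin by 0.66.

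**Figure D5:**
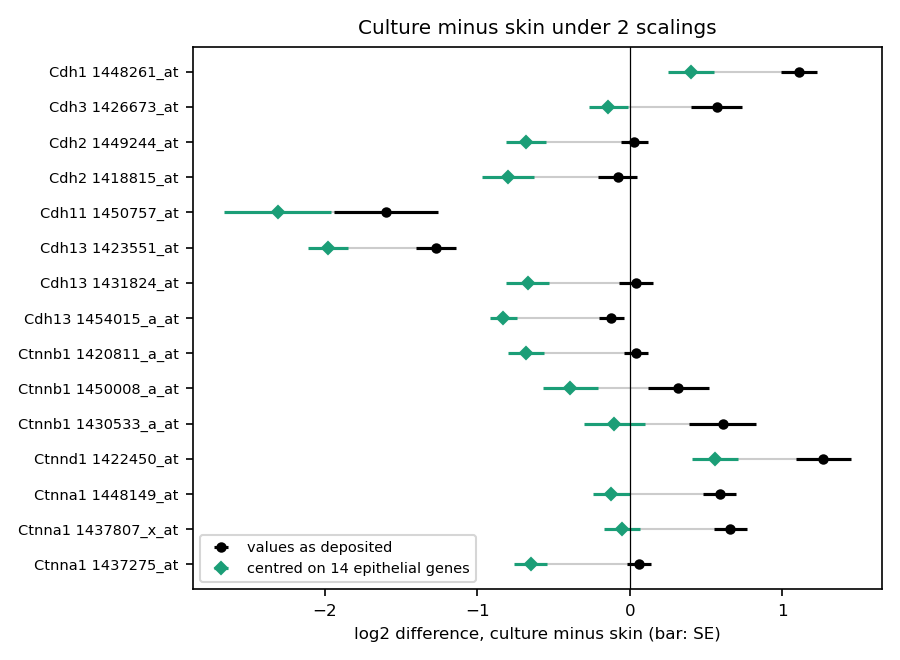
Log2 difference of culture minus skin with SE (x axis) for the 15 probe sets (y axis) from values as deposited (black) and from arrays centred on 14 epithelial genes (green). Every point moves by about 0.71 to the left, so Cdh1 (0.40) and Ctnnd1 (0.56) stay above 0 while Cdh3 (-0.14) and Ctnna1 (-0.12 and -0.05) cross it.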

How the data were processed

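RNA of 12 samples was measured on Affymetrix mouse arrays, and groups were taken from the sample titles and strain labels. The deposited log2 values are RMA output per the submitters' processing notes. RMA adjusts for background, equalises the distributions of the arrays by quantiles and combines probes into a value per probe set. For its version and settings, nothing is given in the sources used here. The lowest value was 2.89 and the highest 13.59, with array medians of 5.86 to 6.01. There is no detection call, and precision is limited by the number of arrays. A single symbol was annotated for 20380 probe sets, more than 1 for 691 and no symbol for 1555, and 64 controls were left out. The RefSeq table held the gene identifier of 20351 of the first, and 0 of the probe sets with several symbols held a gene of the set.

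All 22626 probe sets entered 1 limma fit (R 4.3.3 with limma 3.58.1, two-sided moderated test from lmFit and eBayes, Benjamini-Hochberg over all probe sets, threshold 0.05) with a mean each for culture, 30-day and newborn skin. Strain within culture, and the difference between strain-matched differences, came from a fit with 4 means. All probe sets of the 8 genes are given, and a gene is described by the one with the highest mean. Of the context lists the text names, in each comparison and direction, up to 4 called genes with the largest change and 1 gene that missed the threshold, and the 3 nearest profiles of each gene that differed by 1 or more between culture and skin. Marker lists are given by counts and by ranges of their mean, with marker genes named after their values were seen. The genes and lists were chosen with earlier results of these data known. The fit was tested on simulated arrays.

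Alternatives covered normalisation, centring, a filter on the dimmest 40% of probe sets, the rule for several probe sets of a gene, the threshold, array weights, the variance model, a strain covariate, strain-matched cultures, the replicate number as a block, the groups in the fit, averaging of close arrays, and leaving out each array. Promoter windows are RefSeq sequences of GRCm38.p6. The array files name no genome build, so no other coordinates are given. Tables and drawings were made in Python 3.11.15 with matplotlib 3.10.9, numpy 2.4.6 and pandas 2.3.3.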

Additional observations from a re-analysis of the deposited data

Results flagged for a closer look

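In 30-day skin, 1 sample lay far from the other 4 by Dixon's criterion on 4 of the 15 probe sets, and in each case it was replicate 1. It was highest for Cdh11, at 6.57, and for the dim Ctnna1 probe set 1437275_at, at 4.13. It was lowest for the Ctnnb1 probe sets 1450008_a_at, at 9.01, and 1430533_a_at, at 7.86. Chance flags about 1 in 20 groups. The same sample had the widest gap between 3' and 5' actin controls, 1.74, and the part of RNA quality in these values was not tested.

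The step from skin to culture differed between the strain and age pairs for 4 of the 15 probe sets, by a test of the difference itself (limma, adjusted over all probe sets). Of all probe sets 8.48% passed it. Mixed-strain culture minus 30-day skin, less FVB culture minus newborn skin, was 4.19 for Cdh11 (adjusted p = 1.20e-06), 1.17 for Cdh2 1418815_at (adjusted p = 0.00281), 0.62 for Cdh2 1449244_at (adjusted p = 0.0407) and -0.81 for Cdh3 (adjusted p = 0.0499). For Cdh11 the pairs had opposite signs, 0.66 and -3.53, as did those of both Cdh2 probe sets, 0.55 and -0.62 for 1418815_at and 0.36 and -0.26 for 1449244_at. Centred on the epithelial genes the mixed-strain arm was 0.09 for Cdh11, -0.02 for 1418815_at and -0.21 for 1449244_at. Age and strain cannot be told apart in this test. Its value is also mixed minus FVB culture less 30-day minus newborn skin, so it restates those comparisons.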

How the results depend on the processing

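Of 1870 values of a probe set under an alternative, 1689 kept their direction and their side of the threshold, 70 lost the call, 43 gained one and 68 reversed, 43 of these with no call on either side. Centring on the epithelial genes reversed, in culture minus skin, Cdh3 (-0.14), Ctnna1 1448149_at (-0.12), 1437807_x_at (-0.05) and 1437275_at (-0.65), Ctnnb1 1430533_a_at (-0.10), 1420811_a_at (-0.68) and 1450008_a_at (-0.39), Cdh13 1431824_at (-0.67) and Cdh2 1449244_at (-0.68). In culture minus newborn skin it reversed Cdh3 (-0.12), Ctnna1 1448149_at (-0.07) and 1437275_at (-0.67), Ctnnb1 1420811_a_at (-0.65), 1430533_a_at (-0.30) and 1450008_a_at (-0.50), and Cdh13 1431824_at (-0.74) and 1454015_a_at (-0.71). In culture minus 30-day skin it reversed Cdh3 (-0.17), Ctnna1 1448149_at (-0.17), 1437807_x_at (-0.11) and 1437275_at (-0.63), Cdh13 1431824_at (-0.61), Ctnnb1 1450008_a_at (-0.29), and Cdh2 1449244_at (-0.44) and 1418815_at (-0.40). Cdh11 in that comparison reversed to 0.66 both with strain as a covariate and in strain-matched cultures, and the mean of the Ctnnb1 probe sets reversed to 0.36. The other reversals had no call on either side. Centring on the epithelial genes gave -0.04 for Ctnna1 1437275_at between skin ages and 0.10 for Cdh13 1431824_at, 0.11 for Cdh13 1454015_a_at and 0.08 for Ctnna1 1437275_at between culture strains. In culture minus 30-day skin Ctnnb1 1420811_a_at was 0.04 with median centring and 0.01 with strain as a covariate or matched, and Ctnna1 1437275_at was -0.01 with both of those. In culture minus skin the replicate block gave 0.01 and array weights 0.00 for Cdh2 1418815_at, and the mean per gene gave -0.03 and close arrays averaged 0.00 for Cdh2 1449244_at. Between skin ages the values were 0.03 (strain covariate) and 0.02 (close arrays) for Cdh13 1431824_at, 0.03 (array weights) for Ctnnb1 1450008_a_at, -0.08 (mean per gene) for Ctnnb1 and -0.11 (replicate block) for Cdh3. Between culture strains the replicate block gave -0.33 for Cdh1, -0.09 for Ctnnb1 1420811_a_at and 0.01 for Cdh13 1454015_a_at, and the mean per gene gave 0.00 for Cdh13. Values that turned when an array was left out ranged, between culture strains, from -0.04 to 0.19 for Cdh1, -0.03 to 0.24 for Cdh13 1423551_at, -0.15 to 0.05 for Cdh13 1431824_at, -0.19 to 0.05 for Ctnna1 1437275_at and -0.49 to 0.14 for Ctnnd1. Between skin ages they ranged from -0.31 to 0.27 for Cdh13 1431824_at and from -0.18 to 0.10 for Ctnnb1 1450008_a_at. In culture minus newborn skin the range was -0.26 to 0.32 for Cdh13 1431824_at. In culture minus skin it was -0.10 to 0.18 for that probe set, -0.20 to 0.03 for Cdh2 1418815_at and 0.00 to 0.08 for Cdh2 1449244_at, and in culture minus 30-day skin 0.00 to 0.08 for Ctnna1 1437275_at. The cause of the reversals was not tested beyond the shift of the median that the centring itself makes.

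Counts of higher probe sets fell under that centring to 2 for culture minus skin, 2 for culture minus newborn skin and 0 for culture minus 30-day skin, and counts of lower ones rose to 9, 8 and 8. Over all 22626 probe sets the centred counts, in the same order, were 909, 676 and 1120 higher and 18303, 17803 and 17390 lower. For mixed minus FVB culture the centring gave 2 higher, beside 1469 of all probe sets. The count higher in 30-day minus newborn skin, 0 as deposited, was 1 with a trended, robust variance, 2 with array weights and 1 with the strain covariate, and 0 to 2 when arrays were left out, with 2 (Ctnnd1 and Cdh13 1454015_a_at) without replicate 1 of 30-day skin. The count lower there, 2, became 1 with the dim filter, with 1 probe set per gene, with the replicate block, at a threshold of 0.01 and without moderation, and 0 with close arrays averaged; leaving out arrays gave 1 to 2, with 1 without replicate 3 of 30-day skin or either newborn sample. The count lower in culture minus 30-day skin, 2, became 1 with median centring, the dim filter, 1 probe set or the mean per gene, the 0.01 threshold and close arrays averaged. For mixed minus FVB culture the count higher, 1, was 2 with a trended, robust variance, 3 with array weights, 3 with only the groups compared and 0 with close arrays averaged. Leaving out arrays gave 1 to 4, with 4 (Cdh11, Cdh2 1418815_at and 2 Ctnnb1 probe sets) without replicate 1 of 30-day skin and 2 without culture 4. The count lower there, 1, became 0 with repeated quantile normalisation, the replicate block, the 0.01 threshold, close arrays averaged and no moderation, and 0 to 1 when arrays were left out, with 0 without any single culture. Leaving out newborn replicate 1 reduced the higher count in culture minus newborn skin to 3 in a range of 3 to 5.

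Same-numbered samples of different groups correlated by -0.28 to 0.20 in their deviations, which did not show that the numbers pair the samples. It cannot exclude pairing, since the deviations of the newborn samples mirror each other. With the replicate block, Cdh2 1418815_at in 30-day minus newborn skin was -0.51 (adjusted p = 0.155), Cdh3 was 0.39 (adjusted p = 0.225) in culture minus newborn skin and -0.43 (adjusted p = 0.316) in mixed minus FVB culture, and Ctnnb1 1430533_a_at in culture minus skin was 0.61 (adjusted p = 0.0638), the 4 calls lost under it. Averaging the 4 pairs of arrays whose root mean square difference was under 0.213 merged cultures 1 and 2, both newborn samples, and 30-day replicates 2 with 3 and 4 with 5. Mixed-strain culture and newborn skin were then left with a single array each. Cdh11 was at -2.46 between skin ages and at 1.67 between culture strains, and neither was called. Cdh3 lost its call in 11 of 27 alternatives against 30-day skin, 14 of 27 against newborn skin and 10 of 25 between culture strains, besides the reversals. For dim probe sets, among them both of Cdh2, signal over background was not measured.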
